A study of Mus musculus with 8 samples.

Results

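The genes of the visual cycle, the enzymes and binding proteins that turn over the retinal chromophore, were followed here in the whole retina of Lpcat1 wildtype (WT) and Lpcat1 knockout (KO) mice. The set holds 10 genes, listed by name for their place in the cycle, with earlier results of these data known: Rdh8, Rdh12, Rbp3 and Abca4 of the photoreceptors, Rdh11 of photoreceptors and pigment epithelium, Rlbp1 and Rgr of Müller glia, and Rpe65, Lrat and Rdh5 of the pigment epithelium. On the array they are read by 11 of 55681 probes, found through the RefSeq transcript to which each probe is assigned, with a pair of probes for Abca4 and a single probe for each of the other 9 genes.

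Lpcat1 encodes an acyltransferase that attaches a fatty acid to lysophosphatidylcholine, and the arrays compared total RNA of the whole retina with and without it at 2 weeks of age. Each genotype had 4 samples, labelled C57BL/6, and each sample was hybridised to 1 of 8 arrays. Per the study's methods, the KO line was made on C57BL6/N, crossed with C57BL6/J to remove the retinal degeneration allele rd8 of Crb1, and animals homozygous for rd8 were left out. The deleted part of Lpcat1, and whether WT and KO were littermates, are not given in the sources used here. The labels do not say that the samples came from separate mice, so the p-values measure the spread between these samples. All 8 arrays shared 1 slide, with WT in one row and KO in the other, so that row and genotype cannot be told apart.

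In the visual cycle, light turns 11-cis-retinal bound to an opsin into all-trans-retinal, which has to be carried away, reduced, isomerised and oxidised again before the pigment can be rebuilt. Photoreceptors clear and reduce the retinal, the pigment epithelium esterifies the retinol and isomerises it, and soluble proteins carry retinoids within and between these cells. Müller glia hold binding and opsin-like proteins that serve a second supply of chromophore, and loss of many of these genes causes inherited retinal disease in people.

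Levels are log2 of the processed signal minus the 75th percentile of the same array, so a value tells how bright a probe was on its array and cannot be ranked against another probe. Differences are KO minus WT on this log2 scale, given with the standard error (SE) and 95% interval of limma and with its p after Benjamini-Hochberg adjustment over the 33972 probes tested. Calls needed an adjusted p under 0.05 and more than a 1.2-fold change. The 4 arrays of each genotype limit the precision, and an exact two-sided permutation test of 4 against 4 values cannot give a p below 0.0286. All 11 visual cycle probes were well above background on all 8 arrays and none was saturated (0 spots). The Lrat and Rdh8 probes were dim, with signals of 85.8 to 133 and of 78.0 to 108.

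The single Lpcat1 probe, examined first as a check of the labels, was at -0.41 ± 0.03 in WT and -0.87 ± 0.06 in KO (SD, n = 4 each), a difference of -0.46 (SE 0.04, limma adjusted p = 0.00368). Its signal in KO was 72.5% of that in WT, and where the probe lies relative to the deletion was not settled. Across the array the median difference was -0.04. Among the 2425 tested probes with a mean level above 4, the range of Rdh12, Rbp3, Rlbp1 and the brighter Abca4 probe, 77.4% were lower in KO, the median was -0.07 and 1.57% were called lower.

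Of the visual cycle genes, Rdh12 fell in KO, to 76.7% of its WT signal. It was the 1 probe called among 11, where 2.92% of all tested probes were called, 1.54% lower and 1.38% higher. Of the calls over the whole array 47.4% were higher in KO, and 64.9% were with cyclic loess scaling. The groups did not overlap for 5 of the 11 probes: Rdh12, Rbp3 and both Abca4 probes were lower in every KO array than in any WT array, and Rlbp1 was higher. Over all tested probes the groups failed to overlap for 17.5%, with 11.4% lower and 6.04% higher in KO. Before adjustment, 6 of the 11 probes had a limma p under 0.05, against 23.8% of all tested probes. By site, all 5 photoreceptor probes lay below 0, as 62.0% of all tested probes did, and the 6 genes of the other sites lay above it, with a median difference of -0.14 over the 4 photoreceptor genes, 0.13 over the 2 Müller glia genes and 0.23 over the 3 pigment epithelium genes. These medians are given beside -0.02 over the 14939 named genes tested, and Rdh12 alone among the 10 genes was called. The signs of 9 genes held under every scaling tried, while that of Rdh8 turned to 0.02 with cyclic loess.

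**Figure D1:**
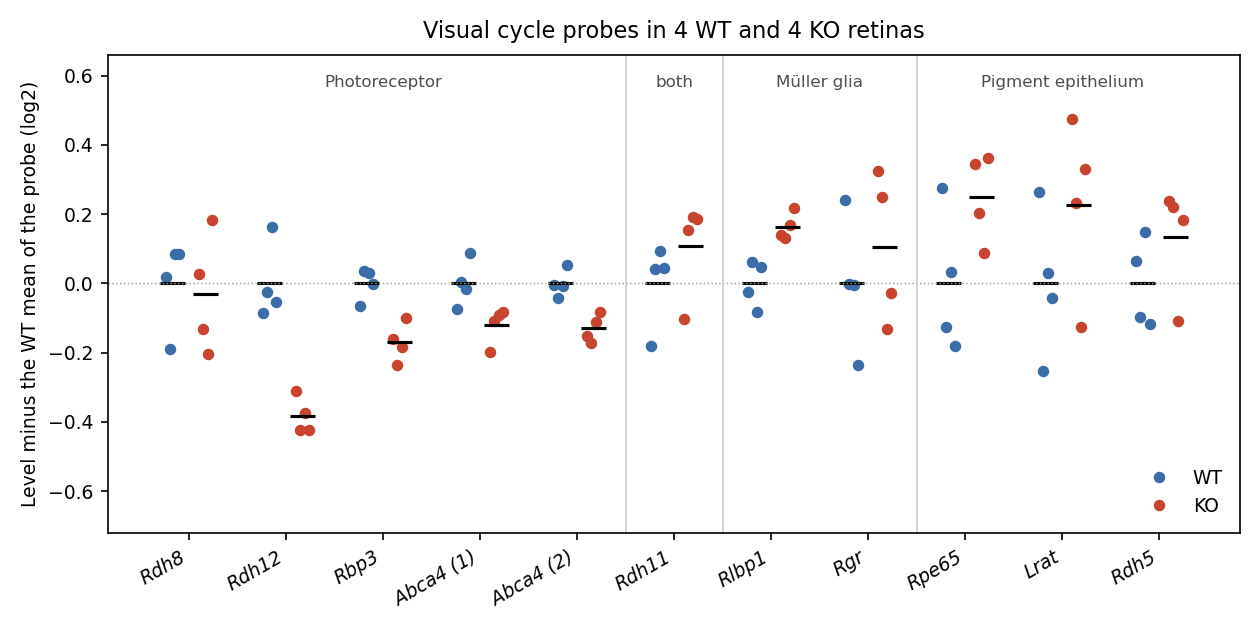
Level of each visual cycle probe on the 4 WT (blue) and 4 KO (red) arrays, in log2 units relative to the WT mean of that probe, with probes grouped by the site of the gene. Points are arrays and black bars are genotype means. The 4 KO values of Rdh12 sit together below all WT values, at a mean 0.38 lower, and the KO means of the other probes lie between -0.17 and 0.25.

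The 250 bases before the annotated start are printed for 4 of the genes, from the promoter windows of RefSeq on GRCm38.p6, 5′ to 3′ on the strand of the gene. Rdh12 is shown as the gene that was called, Rdh11 as its neighbour and close relative on chromosome 12 that was not, Rbp3 as the photoreceptor gene with the most matches and Rgr as a gene outside the photoreceptors. All 10 genes matched the table, with 11 windows. Capitals mark letters matching TAATCC, bound by the photoreceptor and pigment epithelium factors CRX and OTX2, TGCTGA, part of the site of the rod factor NRL, and CATGTG and CACGTG, E-boxes of the kind that MITF binds. Each was searched on both strands (TAATCC is then also read as GGATTA and TGCTGA as TCAGCA), and no match overlaps another.
Rdh12, chr12:79208663-79208912, plus strand: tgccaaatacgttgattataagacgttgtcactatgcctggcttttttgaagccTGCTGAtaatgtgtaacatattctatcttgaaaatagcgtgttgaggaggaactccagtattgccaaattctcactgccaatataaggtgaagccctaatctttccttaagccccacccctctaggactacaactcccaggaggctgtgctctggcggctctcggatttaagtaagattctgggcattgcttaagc
Rdh11, chr12:79191856-79192105, minus strand: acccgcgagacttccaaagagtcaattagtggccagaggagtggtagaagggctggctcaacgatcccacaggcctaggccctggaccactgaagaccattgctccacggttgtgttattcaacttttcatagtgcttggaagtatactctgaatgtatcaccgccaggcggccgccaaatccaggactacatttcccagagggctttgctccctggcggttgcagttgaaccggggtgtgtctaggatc
Rbp3, chr14:33953753-33954002, plus strand: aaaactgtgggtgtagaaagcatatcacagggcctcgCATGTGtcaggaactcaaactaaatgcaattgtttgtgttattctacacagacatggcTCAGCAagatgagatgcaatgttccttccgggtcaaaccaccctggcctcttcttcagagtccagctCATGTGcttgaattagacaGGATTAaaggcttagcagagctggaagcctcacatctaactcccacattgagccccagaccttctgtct
Rgr, chr14:37049015-37049264, minus strand: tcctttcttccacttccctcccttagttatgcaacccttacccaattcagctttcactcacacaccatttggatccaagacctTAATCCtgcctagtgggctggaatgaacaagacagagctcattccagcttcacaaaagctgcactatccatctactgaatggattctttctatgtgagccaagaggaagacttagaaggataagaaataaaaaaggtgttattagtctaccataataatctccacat

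In these windows TAATCC or its reverse complement stood before Rbp3 (positions -69 to -64 from the start), Abca4, Rgr and Rpe65, against 6.3% of 32851 promoter windows of the genome. TGCTGA or its reverse complement stood before Rdh12 (positions -196 to -191), Rbp3 and Rlbp1, against 16.1% of windows. CATGTG was found before Rbp3, Rlbp1 and Rpe65 (12.3% of windows), CACGTG in 1 of the pair of Rdh11 windows (6.0%) and TATAAA, searched on the gene strand alone, before Abca4 (7.6%). The windows of Rdh8, Lrat and Rdh5 held none of these letters. The window printed for Rdh11 held none either, and the CACGTG matches lay in its other window, which had no TGCTGA.

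Among the photoreceptor enzymes, Rdh12, which reduces all-trans-retinal and lipid aldehydes in the inner segments, differed most. In WT its level was 5.08, 5.14, 5.32 and 5.11 in replicates 1 to 4, and in KO it was 4.85, 4.74, 4.79 and 4.74. The KO arrays lay close together and every one was below the lowest WT array. Rdh12 averaged 5.16 ± 0.11 in WT and 4.78 ± 0.05 in KO (SD, n = 4 each), a difference of -0.38 (SE 0.06, 95% interval -0.52 to -0.24, limma adjusted p = 0.0179), or 1.30-fold lower. A difference this low or lower was seen for 818 of the 33972 probes (2.41%). In whole retina RNA, fewer cells of a type and less RNA per cell cannot be told apart, and this holds for every gene below. Without WT replicate 2, KO replicate 2 or KO replicate 4 the limma adjusted p of Rdh12 rose to 0.0575, 0.0578 and 0.0532, with no filter on dim probes it was 0.0638 and with the replicate number as a block 0.0576, so the call ended there while the difference stayed between -0.41 and -0.31 in every setting.

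Rdh8, the dehydrogenase of the outer segments that reduces the all-trans-retinal released from bleached pigment, was read by a dim probe. Its level was -2.81, -3.02, -2.75 and -2.74 in WT and -2.80, -2.96, -3.03 and -2.65 in KO. The ranges of the 2 genotypes overlapped over nearly their whole length. The difference was -0.03 (SE 0.10, limma adjusted p = 0.877), with a 95% interval from -0.25 to 0.19, just inside a 1.2-fold change (0.26 on the log2 scale) either way.

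Rbp3, the interphotoreceptor retinoid-binding protein that photoreceptors secrete into the space between them and the pigment epithelium, had levels of 7.17, 7.27, 7.26 and 7.23 in WT and of 7.07, 7.0, 7.05 and 7.13 in KO. Every KO array lay below every WT array, by a small margin for KO replicate 4 against WT replicate 1. The difference was -0.17 (SE 0.04, 95% interval -0.27 to -0.07), leaving 88.9% of the WT signal, and it did not pass the test (limma adjusted p = 0.0615). It was -0.06 with quantile normalization and -0.08 with cyclic loess, and ran from -0.19 to -0.15 as each array was left out. With an intensity trend and robust variances in limma the adjusted p was 0.00807, with a difference short of the 1.2-fold minimum.

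Abca4, the transporter of the disc rims that moves retinal bound to phosphatidylethanolamine across the disc membrane, was read by both of its probes alike. The brighter probe had levels of 4.27, 4.35, 4.33 and 4.43 in WT and of 4.15, 4.24, 4.25 and 4.26 in KO. The second had levels of 3.61, 3.57, 3.61 and 3.67 in WT and of 3.47, 3.45, 3.51 and 3.54 in KO. On both probes the KO arrays lay just under the WT arrays without overlap. The differences were -0.12 (SE 0.05, limma adjusted p = 0.174) and -0.13 (SE 0.04, limma adjusted p = 0.0927), and neither passed the test. With quantile normalization they were -0.08 and -0.09, and with cyclic loess -0.07 and -0.09.

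Rdh11, a dehydrogenase of broad retinoid range found in photoreceptors and in the pigment epithelium, had levels of 2.07, 2.30, 2.35 and 2.30 in WT and of 2.15, 2.41, 2.45 and 2.44 in KO. Replicate 1 was the lowest array in both genotypes, and the groups overlapped. The difference of 0.11 (SE 0.09, 95% interval -0.09 to 0.30) did not pass the test (limma adjusted p = 0.492). Rdh11 and Rdh12 are close paralogues and neighbours on chromosome 12, with 0 annotated genes starting between them, and they can be read against each other within an array. Rdh12 minus Rdh11 was 3.00, 2.84, 2.98 and 2.81 in WT and 2.70, 2.33, 2.34 and 2.30 in KO. Every KO array was below every WT array, and the mean of this gap went from 2.91 ± 0.10 to 2.42 ± 0.19 (SD, n = 4 each), a difference of -0.49 that ran from -0.58 to -0.45 as each array was left out in turn. On the scale relative to Rdh11, 6.53% of the other tested probes were lower in KO without overlap.

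**Figure D2:**
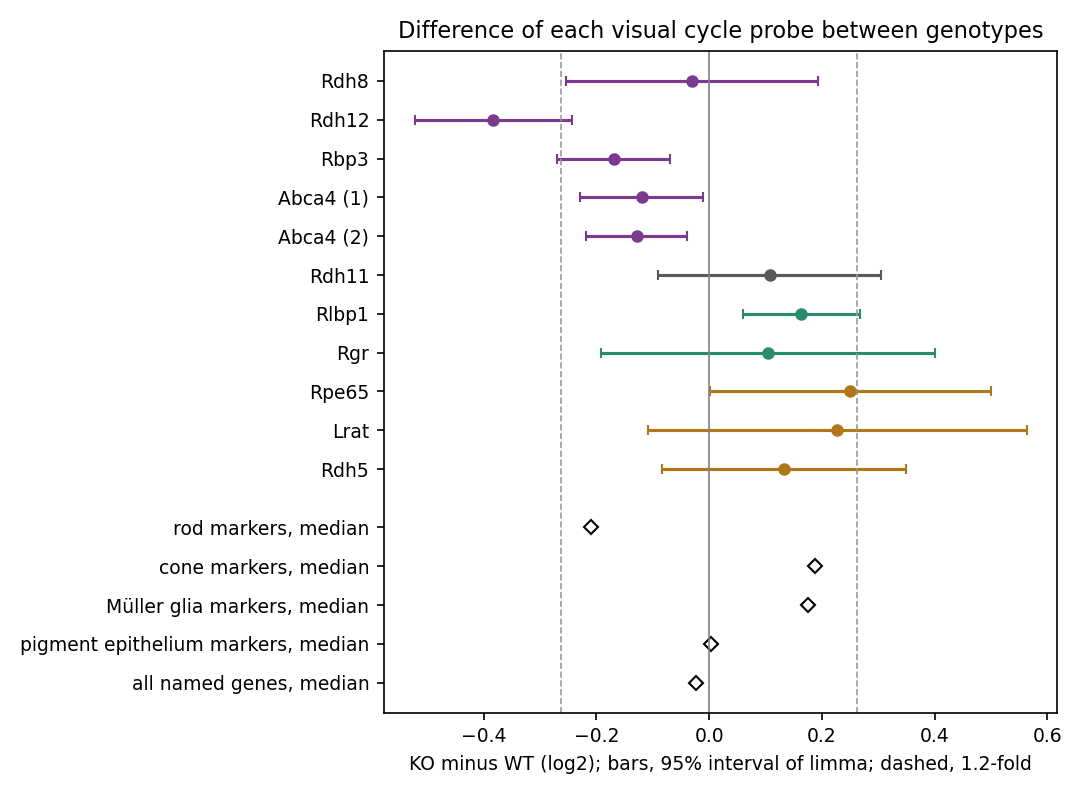
KO minus WT difference on the log2 scale of each visual cycle probe (filled points, limma estimate with its 95% interval), coloured by site, with the median difference of 4 marker lists and of all named genes (open diamonds). Dashed lines mark a 1.2-fold change. The interval of Rdh12 crosses the threshold of -0.26 while excluding 0, and those of the pigment epithelium genes Lrat and Rdh5 include 0.

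Markers of the cell types moved with the genotype in these libraries. Of 17 rod markers, none of them a visual cycle gene, 15 were lower in KO with a median difference of -0.21, 14 of them without overlap, and 4 were called lower, where of all 14939 named genes 1853 were lower without overlap and 222 were called lower. Their summed level (log2 of the summed relative signals) was 11.58 to 11.63 in WT and 11.33 to 11.43 in KO. Nr2e3, a rod transcription factor, fell by 0.50 (limma adjusted p = 0.0213). Gnat1, the rod transducin subunit, differed by -0.04 and did not pass the test. Nrl, the rod fate factor, differed by -0.21 with a limma adjusted p of 0.0217, short of the 1.2-fold minimum. The 10 cone markers were all higher in KO, with a median difference of 0.19, 7 of them without overlap and 2 called. Of all 14939 named genes 6294 were higher in KO, 1310 were higher without overlap and 297 were called higher. Arr3, the cone arrestin, rose by 0.46 (limma adjusted p = 0.00236), and Gnat2, the cone transducin subunit, differed by 0.23 (limma adjusted p = 0.0257, short of the minimum fold). The summed level of the cone markers was 8.0 to 8.03 in WT and 8.15 to 8.21 in KO. Whether these shifts play a part in the visual cycle differences was not tested.

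The photoreceptor genes were set against the rod transcripts of the same array, as values with no test. Relative to the mean level of the 17 rod markers, a reference chosen after seeing the data, Rdh12 stood at -1.99, -1.89, -1.76 and -1.95 in WT and at -2.02, -2.09, -2.08 and -2.12 in KO. It was lower in every KO array, with a difference of -0.18, where 0.598% of all tested probes were lower without overlap on this scale. Rbp3 differed by 0.03, Abca4 by 0.08 and Rdh8 by 0.17 on the same scale, and their groups overlapped. Rdh11, Rlbp1 and Rpe65 were higher in every KO array on this scale, as 39.7% of all tested probes were. Rdh12 thus stood further down than the rod mean in KO, and Rbp3 and Abca4 did not.

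The choice of reference changed these values. Against the median of the rod markers, the planned reference, the differences were -0.25 for Rdh12, -0.03 for Rbp3, 0.02 for Abca4 and 0.11 for Rdh8. The groups did not overlap for Rdh12, against 0.739% of probes lower without overlap. As single arrays were dropped, that of Rdh12 stayed between -0.29 and -0.18, while the others moved by more than their own size or nearly so. With KO replicate 4 dropped, Rbp3 was at -0.08, Abca4 at -0.02 and Rdh8 at 0.013, and with KO replicate 2 dropped they were at 0.03, 0.06 and 0.18. With each of the 17 rod markers in turn as the reference, also chosen after seeing the data, the difference of Rdh12 ran from -0.44 to 0.11, was below 0 for 16 markers and was without overlap for 8. That of Rbp3 was below 0 for 4 markers, 3 without overlap, and above 0 for 13, 3 without overlap. That of Abca4 was below 0 for 4, 1 without overlap, and above 0 for 13, 2 without overlap. That of Rdh8 was below 0 for 2, with overlap, and above 0 for 15, 2 without overlap. Against the cone median the differences were -0.55 for Rdh12, -0.34 for Rbp3, -0.29 for Abca4 and -0.20 for Rdh8.

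**Figure D3:**
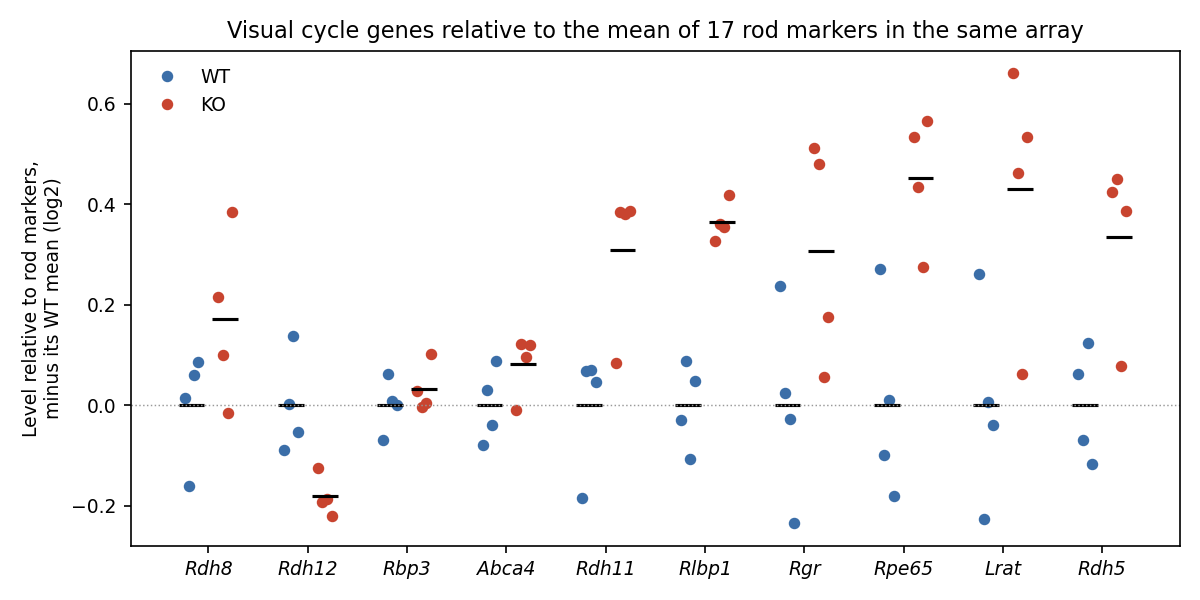
Level of each visual cycle gene relative to the mean of 17 rod markers on the same array, shown in log2 units minus the WT mean of that value, for 4 WT (blue) and 4 KO (red) arrays with bars at the genotype means. Rdh12 lies below its WT values, at -0.18, Rbp3 and Abca4 lie near 0, Rdh8 at 0.17 and the genes of the other sites lie above it, from 0.31 to 0.45.

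Of the Müller glia genes, Rlbp1 encodes CRALBP, the cellular retinaldehyde-binding protein that holds 11-cis-retinoids in Müller glia and in the pigment epithelium. Its level was 4.72, 4.80, 4.66 and 4.79 in WT and 4.88, 4.87, 4.91 and 4.96 in KO. Every KO array was above the highest WT array. The difference of 0.16 (SE 0.05, 95% interval 0.06 to 0.27), or 112% of the WT signal, did not pass the test (limma adjusted p = 0.0729). With quantile normalization it was 0.23 at a limma adjusted p of 0.0297, still short of the 1.2-fold minimum, and with the trend and robust variances the adjusted p was 0.0142.

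The Müller glia markers stood higher in KO as well. Of 12 markers, 11 were higher, with a median difference of 0.18, 8 of them without overlap and 4 of them called, where of all 14939 named genes 1310 were higher without overlap and 297 were called higher. Their summed level was 8.53 to 8.61 in WT and 8.79 to 8.82 in KO. The brightest markers weigh most in this sum, and the brightest were among those called. The median level of the 12 markers was 3.41 to 3.53 in WT and 3.51 to 3.58 in KO, with overlap. Glul, the glutamine synthetase of these cells, differed by 0.14, the glutamate transporter Slc1a3 by -0.04 and the water channel Aqp4 by 0.25, with limma adjusted p of 0.0815, 0.631 and 0.0617. The part of these shifts in the Rlbp1 difference was not tested. Relative to the mean of the 12 markers on the same array, Rlbp1 was at 1.28, 1.32, 1.19 and 1.29 in WT and at 1.27, 1.22, 1.23 and 1.32 in KO, a difference of -0.01 with overlap. This scale was chosen after seeing the data, and on it the genotypes lay closer together than the SD of either (0.06 in WT and 0.04 in KO). Against the median of the same markers the sign turned, with a difference of 0.08 that exceeded the SD of 0.05 in WT and 0.03 in KO, and the groups still overlapped.

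Rgr encodes an opsin-like protein of Müller glia and pigment epithelium that binds all-trans-retinal. Its level was 0.33, 0.09, 0.09 and -0.14 in WT and 0.42, 0.34, -0.04 and 0.07 in KO. The arrays of each genotype spread widely and overlapped, and the difference of 0.10 (SE 0.13, 95% interval -0.19 to 0.40) did not pass the test (limma adjusted p = 0.665). It ran from 0.026 (without WT replicate 4) to 0.19 (without WT replicate 1) as each array was left out. In its deviations from the genotype means, Rgr correlated at -0.52 with Rlbp1 and at 0.69, 0.68 and 0.71 with Rpe65, Lrat and Rdh5. The median given above for the 2 Müller glia genes thus joins genes that varied unlike each other.

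In the pigment epithelium, Lrat makes retinyl esters, Rpe65 turns them into 11-cis-retinol and Rdh5 oxidises that to 11-cis-retinal. Rpe65 was at 1.24, 0.84, 1.00 and 0.78 in WT and at 1.31, 1.17, 1.05 and 1.33 in KO. WT replicate 1 lay among the KO arrays, and the other WT arrays lay below them. The difference was 0.25 (SE 0.11, 95% interval 0.00 to 0.50), and while its unadjusted p in limma was 0.0495, it did not pass the test (limma adjusted p = 0.209). As each array was left out in turn, the difference ran from 0.19 (without WT replicate 4) to 0.34 (without WT replicate 1).

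Lrat was at -2.51, -3.02, -2.74 and -2.81 in WT and at -2.30, -2.54, -2.90 and -2.44 in KO. KO replicates 2 and 3 lay within the WT range, and the difference of 0.23 (SE 0.15, 95% interval -0.11 to 0.56) did not pass the test (limma adjusted p = 0.389). Leaving out WT replicate 2 gave 0.14 and leaving out KO replicate 3 gave 0.35, the ends of its range over the arrays. Rdh5 was at 1.99, 1.83, 2.07 and 1.81 in WT and at 2.16, 2.14, 1.82 and 2.11 in KO. KO replicate 3 was again low, down with the lowest WT arrays, and the difference of 0.13 (SE 0.09, 95% interval -0.08 to 0.35) did not pass the test (limma adjusted p = 0.433), and was 0.09 with WT replicate 4 left out and 0.21 with KO replicate 3 left out.

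The pigment epithelium lies outside the neural retina, and how much of it stayed on the dissected retinas is not given in the sources used here. Of 14 pigment epithelium markers, 12 were tested. The chloride channel gene Best1 was well above background on 1 array alone, KO replicate 3, and Slc45a2, a pigment transporter gene, was not on any (0 arrays). Of the 12, 6 were higher and 6 lower in KO, with a median difference of 0.00. The 1 called was Mitf, a transcription factor of pigment cells, which rose by 0.31 (limma adjusted p = 0.0179). Over all 14939 named genes 3.47% were called, and 297 were called higher. The summed level of the 12 markers was 5.20 to 5.59 in WT and 5.19 to 5.53 in KO. The pigment enzymes Tyr, Tyrp1 and Dct differed by 0.00, 0.12 and 0.01, with limma adjusted p of 0.993, 0.689 and 0.970.

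The arrays differed in these markers within a genotype. KO replicate 3 was the lowest KO array for 9 of the 12 markers and for Rpe65, Lrat, Rdh5, Rgr and Rdh8, where it was the lowest KO array for 23.8% of all tested probes. WT replicate 4 was the lowest WT array for 8 of the 12 markers and for Rpe65, Rdh5 and Rgr, against 29.8% of all probes. Set against the mean of the 12 markers on the same array, Rdh5 was at 1.89, 1.85, 1.88 and 1.92 in WT and at 2.04, 1.98, 1.97 and 2.08 in KO. The spread within each genotype was much smaller on this scale, with an SD of 0.03 in WT and 0.05 in KO against 0.13 and 0.16 before, and the groups no longer overlapped, with a difference of 0.13. This non-overlap was seen for 3.31% of all tested probes on the same scale. Rpe65 and Lrat differed by 0.25 and 0.23 on it, with overlap. The mean as reference was chosen after seeing the data, and against the median of the same 12 markers the difference of Rdh5 was -0.0024, with overlap and an SD of 0.09 in WT and 0.06 in KO. Against that median Rpe65 differed by 0.11 and Lrat by 0.09, with overlap, so these values rest on the choice of reference.

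**Figure D4:**
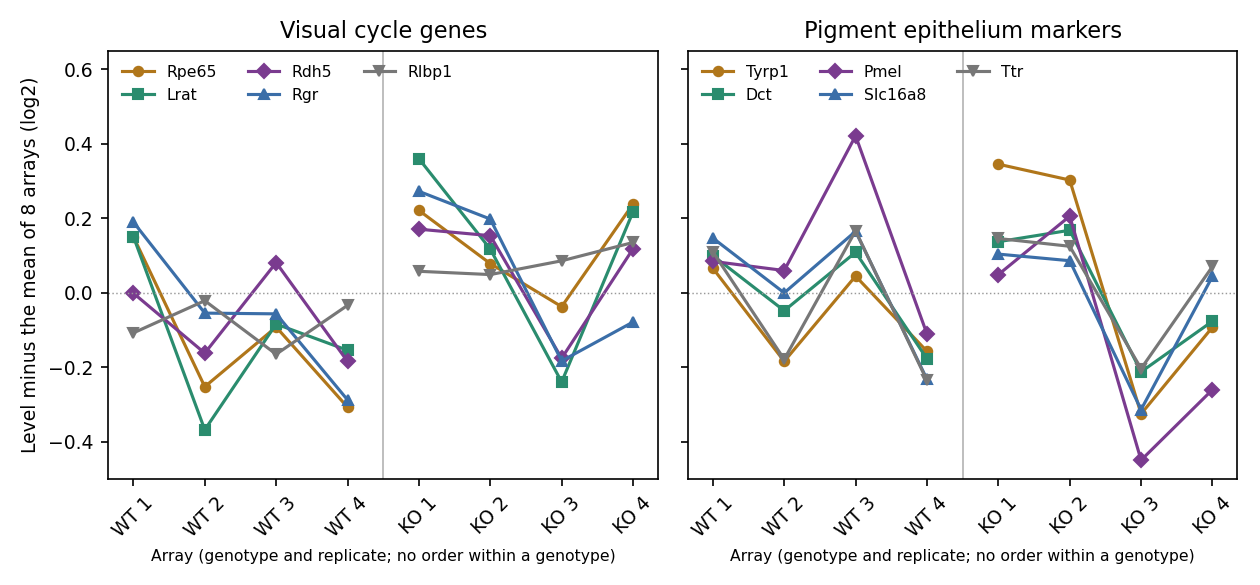
Levels on each array minus the mean of 8 arrays, in log2 units, for visual cycle genes of Müller glia and pigment epithelium (left) and for 5 pigment epithelium markers (right). Lines join the arrays of a genotype to show shared dips and carry no order. Rpe65, Lrat, Rdh5 and Rgr dip at KO replicate 3 together with the 5 markers shown, and Rlbp1 does not. Of all 12 markers tested, KO replicate 3 was the lowest KO array for 9, with the 5 shown among them.

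For Rdh12, Rlbp1 and Rpe65, the named genes with the most similar deviations from their genotype means were listed over the 8 arrays, among 14491 genes, as a description. For Rdh12 these were Ngly1, C1qtnf2, Nccrp1, Ywhae and Acer3, with a Pearson likeness from 0.97 down to 0.95. For Rlbp1 they were Crnde, Mast3, Vps11, Zfp507 and Kmt2d (0.99 to 0.95), and for Rpe65 they included Cyp4a10, Ceacam2, Slc17a9 and Tspo2 (all 0.96). No other visual cycle gene was among them. These are the largest of 14491 values, each over 8 arrays, and how high such values would reach by chance was not tested.

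The rest of retinoid metabolism was read from a list of 44 genes outside the set, of which 37 were tested. Some genes of this list, Opn1sw, Opn1mw, Rrh and Ttr among them, are also cell type markers. Of the 37 tested, 21 were higher and 16 lower in KO, with a median difference of 0.02. Called were 1 higher and 2 lower, where 3.47% of all named genes were called. Crabp1, which binds retinoic acid in the cytoplasm, fell from 1.51 ± 0.05 to 1.13 ± 0.04 (SD, n = 4 each), by 0.38 (SE 0.04, limma adjusted p = 0.00507). Opn1sw, the short-wavelength cone opsin, rose from -1.34 ± 0.12 to -0.90 ± 0.17, by 0.43 (SE 0.09, limma adjusted p = 0.0402). The methods' t-test called Crabp1 and not Opn1sw.

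Of 13 other retinol dehydrogenases 8 were tested, 4 higher and 4 lower in KO. Limma and the methods' t-test called 0 of them, with 2 at an unadjusted limma p under 0.05. Dhrs3, the retinal reductase of cone outer segments, had the lowest adjusted p of them, with a difference of -0.20 (SE 0.05, limma adjusted p = 0.0508). That difference was also short of the 1.2-fold minimum. Every KO array was below every WT array, where 21.2% of all named genes did not overlap in either direction. Rdh10, which oxidises all-trans-retinol, differed by 0.15 (limma adjusted p = 0.159) and Rdh14 by -0.08 (limma adjusted p = 0.556).

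Of the 8 transport and binding genes, all tested, 6 were higher and 2 lower, and Crabp1 was the 1 called. Rbp4, the retinol carrier of the blood, was higher without overlap, by 0.24 (SE 0.07, limma adjusted p = 0.0719). Its receptor Stra6 differed by 0.06 and its partner Ttr by 0.07 (limma adjusted p = 0.786 and 0.758). Of the 6 genes of esterification, isomerisation and saturation, 5 were tested, 1 was higher and 4 were lower. Limma and the methods' t-test called 0 of these, with 2 at an unadjusted limma p under 0.05.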

How the data were processed

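Whole retina RNA of 4 WT and 4 KO samples, with groups and numbers from the labels, was measured on 1-colour (Cy3) Agilent SurePrint G3 mouse arrays. Per the file headers, the deposited scanner files hold the intensity of each spot on a linear scale, background-subtracted by Agilent Feature Extraction (version 10.7.1.1 in the submitters' processing notes), with no scaling between arrays. The authors then applied a 75th percentile shift, and a deposited table holds those values on a log2 scale, 0.12 to 0.15 above the levels computed here on each array, so it served as an alternative. Its column medians ran from -3.31 to -3.21. Unused columns of sample values numbered 0.

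Levels were log2 processed signal minus the 75th percentile (a signal of 638 to 738) of the 59305 non-control spots of the array. Outlier spots (86 to 147 per array) were left out and repeated spots averaged. Testing was limited to the 33972 probes well above background on every array of WT, of KO or of both, with 33113 to 36373 above it per array. Names came from a RefSeq table by transcript (47.4% of probes matched), used for names, gene order and promoters because the array design is on another build (mm9). The probe with the highest mean stood for a gene.

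The test was limma (version 3.58.1, lmFit and eBayes, R 4.3.3) without covariates, and the fit was tested on simulated data. Of 50 probes changed at each size, it called 13 at a log2 change of 0.3, 34 at 0.5, 36 at 0.75 and 45 at 1. In that run 7 unchanged probes were called. The visual cycle genes, the other lists and the genes named were chosen with earlier results of these data known. Named were every visual cycle gene, Lpcat1, called genes of the wider list, a fixed choice from each list and the 5 genes most like Rdh12, Rlbp1 and Rpe65. Mitf, Slc45a2, Cyp26b1, Rarg and Rxra were named after their values were seen. A few genes set by these rules, and results that need them, are not reported here. Alternatives were other scalings, background correction (normexp, offset 50, on median signals) and filters, a t-test as the methods name, limma with trend and robust eBayes, a replicate block, the authors' values, flagged spots kept, no minimum fold, other reference genes and leaving out each array.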

Additional observations from a re-analysis of the deposited data

Results flagged for a closer look

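Among the 10 genes in each of 2 genotypes, 20 groups of 4 arrays, 2 held an array far from the other 3, where chance gives about 1 in 20 groups. KO replicate 1 of Rdh11 was at 2.15 while the others were at 2.41 to 2.45 (gap over range 0.873, critical value 0.829). KO replicate 3 of Rdh5 was at 1.82 while the others were at 2.11 to 2.16 (gap over range 0.848). Without KO replicate 1 the difference of Rdh11 was 0.18 (limma adjusted p = 0.176), without WT replicate 1, the lowest WT array, it was 0.047 (limma adjusted p = 0.769), and without KO replicate 3 that of Rdh5 was 0.21 (limma adjusted p = 0.153), and none of these was called.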

How the results depend on the processing

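Of the visual cycle probes, 1 was called in the reported setting and 0 with no filter, with the replicate block and without WT replicate 2, KO replicate 2 or KO replicate 4 (0 to 1 as each array was left out). Rdh12 kept its direction in 20 of 20 settings, with a limma adjusted p of 0.0638 with no filter and 0.0576 with the block. Rdh8 turned to 0.016 with cyclic loess, 0.0027 without KO replicate 2 and 0.027 without KO replicate 3 (lowest -0.10, without KO replicate 4). The other 8 genes kept their direction and stayed uncalled in every setting. Of these, Rbp3 (limma adjusted p = 0.00807), Rlbp1 (0.0142) and the second Abca4 probe (0.0291) passed the adjusted p with trend and robust variances, as did Rlbp1 with normexp and quantile, quantile and cyclic loess (0.0223, 0.0297 and 0.0352), all short of the 1.2-fold minimum. Over the whole array 992 probes were called, 247 with no filter, 1871 with no minimum fold, 394 with the block and 369 (without WT replicate 2) to 1179 (without KO replicate 1) as each array was left out. The share of calls that were higher in KO was 47.4%, against 62.0% with normexp and quantile, 57.8% with quantile, 64.9% with cyclic loess and 60.3% with the 75th percentile of detected probes. The wider list had 3 called genes, and 2 or 3 in every setting. Relative to the rod median, the value of Rdh12 (-0.25) moved to -0.55 with the cone median, that of Rbp3 (-0.03) to -0.34, that of Abca4 (0.02) to -0.29 and that of Rdh8 (0.11) to -0.20. A planned reference of 1 rod gene is not used here. The cause of these shifts was not tested. Replicate numbers were shared by the genotypes without a stated pairing. The deviations of same-numbered arrays correlated at 0.23, 0.06, 0.03 and 0.10. WT replicates 1, 2 and 4 correlated best with the KO array of their own number, and WT replicate 3 with KO replicate 4. Probes with an unadjusted limma p under 0.05 numbered 8947 with the block and 8084 without it. Whether the samples were paired cannot be told from the labels, so the block is given as an alternative. The precision is limited by 4 arrays per genotype. The signals of Rdh8 and Lrat were near the dim end, and whether that widened their spread was not tested.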

Other observations

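Retinoic acid, made from retinal outside the visual cycle, has its own enzymes and receptors, and limma and the methods' t-test called 0 of the 12 tested, with 1 enzyme and 3 receptors at an unadjusted limma p under 0.05. Of all 14939 named genes 3922 had such a p, and 21.2% did not overlap between the genotypes, so these counts are near those of all genes. Of the 7 enzyme genes 6 were tested, 3 higher and 3 lower in KO. Cyp26b1, which degrades retinoic acid, was at -1.33 ± 0.13 in WT and -1.08 ± 0.05 in KO (SD, n = 4 each), a difference of 0.25 without overlap (SE 0.07, limma adjusted p = 0.0636). Aldh1a1, a retinal oxidising enzyme, differed by 0.08 (limma adjusted p = 0.38). Of the 6 receptor genes, Rarg and Rxrg were higher without overlap, by 0.18 (limma adjusted p = 0.0681) and 0.11 (limma adjusted p = 0.172), and Rxra was lower without overlap, with a difference of -0.27 (limma adjusted p = 0.148). 

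All 10 microglia markers were higher in KO, with a median difference of 0.47 and 6 called, where 297 of 14939 named genes were called higher. Their summed level was 3.43 to 3.54 in WT and 3.82 to 3.86 in KO.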
